A study of Mus musculus with 18 samples.

Results

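The genes described here encode the subunits of oxidative phosphorylation, measured by RNA sequencing in microglia and macrophages taken from mouse brain. They were chosen by name: every row of the count table whose symbol belongs to the Nduf, Sdh, Uqcr, Cox4 to Cox8 or Atp5 families, or to the protein-coding genes of the mitochondrial genome, apart from symbols marked as pseudogenes. The rule found 102 genes among 57010 in the table, 89 in the nucleus and 13 in the mitochondrial genome. Of these, 95 had enough counts to be tested, namely 82 nuclear and all 13 mitochondrial genes. Among the 102, 4 are annotated as processed pseudogenes although their symbols are not marked so: Ndufa11b, Ndufb4c, Ndufs6b and Cox6c2.

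The cells came from wild-type male mice. Young animals were 2 to 4 months old and aged animals 18 to 20 months old. There were 6 groups of 3 libraries: young mice given vehicle or bexarotene, aged mice given either, and aged mice after stroke (occlusion of the middle cerebral artery), again given vehicle or bexarotene. Bexarotene activates the retinoid X receptor, a nuclear receptor; it was injected at 5 mg/kg, starting 24 hours from surgery with daily doses on 2 further days, while vehicle was 3% DMSO in saline, and all cells were taken on day 3. Brains were dissociated with warm enzymes, cells carrying Ly6G (a neutrophil surface protein) were removed and CD11b-bearing cells were kept, a selection that passes resident microglia as well as invading monocytes and macrophages. All 12 libraries without stroke carry no disease label, and the labels do not say which surgery those mice had, if any. The libraries are labelled biological replicates; they do not say whether one holds cells of 1 animal or several.

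Oxidative phosphorylation is carried out in the inner mitochondrial membrane. Complex I takes electrons from NADH and complex II from succinate; both pass them through ubiquinone to complex III, cytochrome c and complex IV, which reduces oxygen, and complex V uses the proton gradient built along the way to make ATP. Complex II is wholly encoded in the nucleus, while the other complexes join nuclear subunits to a few made inside the mitochondrion from polycistronic transcripts of the mitochondrial genome. The nuclear genes are classic targets of the transcription factors NRF1 and GABP.

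Promoter sequences were found in the RefSeq table (build GRCm38.p6) for 69 of the 89 nuclear genes by symbol or, for 2 of them, by an older symbol. In the 250 bases before the start site, the NRF1 letters (GCGCA and GCGC with any 1 base between) stood in 19.2% of 73 promoters of these genes and in 3.74% of all 32851 promoters, counting both strands. The GABP letters CCGGAAG stood in 16.4% against 6.91%. The YY1 letters AANATGGC stood in 8.22% against 3.91%, and the ERR letters TCAAGGTCA in 1.37% against 0.387%. The retinoid X receptor letters, AGGTCA repeated in the same direction with 1 or 4 bases between, were in none of the 73 windows, and in 0.0335% and 0.0152% of all promoters. A match of letters is a description and not a bound site. Below are the promoters of the 3 genes with a single listed start that hold NRF1 or GABP letters and had the largest rise after stroke with vehicle, Atp5e and Atp5l (GABP) and Ndufs6 (NRF1), and that of Sdha, which holds the NRF1 letters 3 times and did not pass the test in any comparison. They lie at chr2:174464102-174464351 (Atp5e), chr9:44920743-44920992 (Atp5l), chr13:73328483-73328732 (Ndufs6) and chr13:74350241-74350490 (Sdha), all on the minus strand, and are written on the strand of the gene with the matched letters in capitals.
Atp5e: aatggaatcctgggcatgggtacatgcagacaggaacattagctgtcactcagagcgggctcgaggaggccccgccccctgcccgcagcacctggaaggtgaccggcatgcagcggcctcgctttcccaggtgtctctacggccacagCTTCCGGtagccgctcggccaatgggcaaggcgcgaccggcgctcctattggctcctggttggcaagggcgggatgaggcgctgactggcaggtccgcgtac
Atp5l: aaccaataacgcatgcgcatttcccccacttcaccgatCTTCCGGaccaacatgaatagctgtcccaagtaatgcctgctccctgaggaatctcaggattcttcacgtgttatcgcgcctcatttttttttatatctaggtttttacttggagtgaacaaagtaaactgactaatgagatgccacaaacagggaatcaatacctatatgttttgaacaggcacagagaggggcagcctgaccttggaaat
Ndufs6: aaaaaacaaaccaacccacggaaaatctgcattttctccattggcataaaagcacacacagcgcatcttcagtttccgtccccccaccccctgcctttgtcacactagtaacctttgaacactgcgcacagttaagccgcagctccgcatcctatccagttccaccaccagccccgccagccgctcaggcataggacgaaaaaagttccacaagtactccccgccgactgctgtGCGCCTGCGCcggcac
Sdha: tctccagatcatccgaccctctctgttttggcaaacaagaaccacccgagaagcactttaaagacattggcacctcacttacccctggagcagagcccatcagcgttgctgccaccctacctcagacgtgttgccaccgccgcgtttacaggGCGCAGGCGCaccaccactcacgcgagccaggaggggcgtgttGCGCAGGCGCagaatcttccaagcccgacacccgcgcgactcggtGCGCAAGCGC
After stroke with vehicle the 22 tested genes with NRF1 or GABP letters had a median log2 fold change of 0.73, and 19 of them were called higher. The 44 tested genes with neither had a median of 0.68 with 36 called higher. Over all 15528 genes tested the median was 0.02, and 27.2% were called higher.

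Library totals ran from 7582511 to 11852638 counts in the 12 libraries without stroke and from 16206144 to 29359943 in the 6 stroke libraries. The 13 mitochondrial genes held 0.248% to 0.595% of all counts and the nuclear genes 0.433% to 0.810%. Levels are given below as CPM, depth-scaled counts over the tested genes, scaled further by the trimmed mean of M-values (TMM). The defining microglial marker P2ry12 was at 8741 CPM or more in the 6 young libraries. Libraries differed by replicate number: the choroid plexus transcript Ttr was highest in library 1 of 5 of the 6 groups (for example 1309, 219 and 416 CPM in young vehicle).

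The summed level of the nuclear genes separated the stroke libraries from all others. It was 4152, 4728 and 4624 CPM in young vehicle and 4469, 4646 and 4412 CPM in young bexarotene. It was 4916, 5015 and 5030 CPM in aged vehicle and 4740, 5306 and 4630 CPM in aged bexarotene. After stroke it was 7645, 7505 and 8199 CPM with vehicle and 7630, 8653 and 7447 CPM with bexarotene. Every stroke library thus lay above every library without stroke. The 4 groups without stroke differed less, although all 3 aged vehicle libraries lay above all 6 young ones. The aged bexarotene libraries overlapped the young ones. The summed mitochondrial level was 2761, 2737 and 3135 CPM in young vehicle and 4089, 3517 and 3128 CPM in aged vehicle, and the highest young library and the lowest aged one were nearly equal. In aged stroke it was 5620, 4222 and 6284 CPM with vehicle and 5797, 6265 and 5988 CPM with bexarotene. These 6 values were again above all others, although the lowest, at 4222 CPM, was close to the highest library without stroke, at 4089 CPM. The ratio of the mitochondrial to the nuclear sum was 0.64 ± 0.05 in young vehicle, 0.72 ± 0.11 in aged vehicle, 0.69 ± 0.11 in aged stroke vehicle and 0.76 ± 0.04 in aged stroke bexarotene (SD, n = 3 each). The ranges of the aged and stroke groups overlapped, and those of young vehicle (0.579 to 0.678) and stroke bexarotene (0.724 to 0.804) did not.

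**Figure D1:**
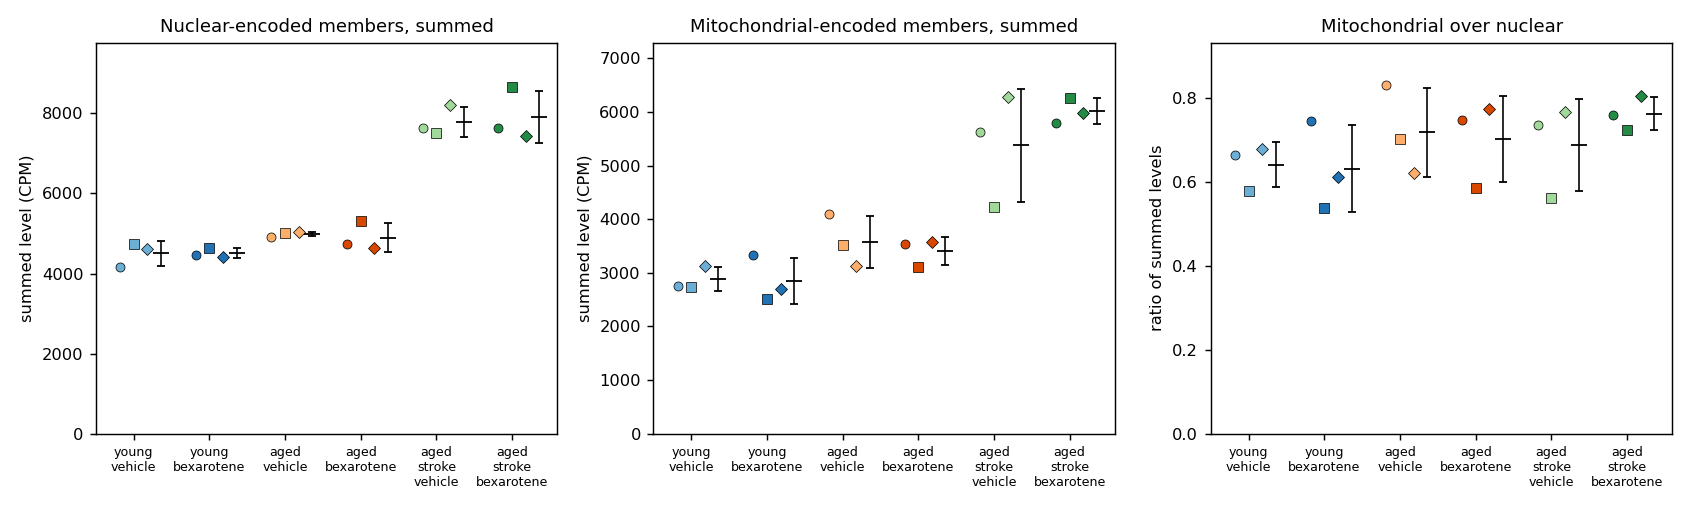
Summed levels (CPM) of all nuclear genes, tested or not (left), and mitochondrial genes (middle) and their ratio (right) in the 18 libraries by group. Circle, square and diamond mark libraries 1, 2 and 3, and bars give the mean ± SD of 3. Both sums are above every other library in the 6 stroke libraries, while the ratio overlaps between the groups except young vehicle and aged stroke bexarotene.

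Per kilobase of transcript, the most abundant members in aged vehicle cells were mt-Atp6 (1033 CPM per kb) and mt-Co3 (959.5 CPM per kb), a membrane subunit of ATP synthase and a core subunit of cytochrome oxidase, followed by mt-Cytb (452.5 CPM per kb). The highest nuclear member was Atp5b, the catalytic beta subunit of ATP synthase, at 236 CPM per kb. The next were Uqcrb of complex III at 179 CPM per kb, and Cox6a1 and Cox4i1 of complex IV at 169 and 159 CPM per kb. The muscle and tissue isoforms were low, with Cox6a2 at 6.45, Cox8b at 5.19 and Cox6b2 at 1.81 CPM per kb. Ndufb2 of complex I was also at 1.81 CPM per kb, but this value rests on a listed transcript of 4371 bases. Its mean without division by length was 7.93 CPM.

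Stroke was the comparison in which the genes of oxidative phosphorylation moved. In aged mice with vehicle, 76 of 95 tested members were higher after stroke and 1 was lower, where 27.2% of all 15528 genes were called higher and 21.1% lower (edgeR quasi-likelihood test, Benjamini-Hochberg adjusted over all genes, threshold 0.05). The 76 comprised 69 of 82 nuclear and 7 of 13 mitochondrial genes. The median log2 fold change was 0.73 over the nuclear and 0.64 over the mitochondrial genes, against 0.02 over all genes tested. In mice given bexarotene, a comparison that shares no library with the first, 77 members were higher and 1 lower, where 26.8% and 21.2% of all genes were. There the medians were 0.79 for the nuclear and 0.91 for the mitochondrial genes, against 0.00 for all genes. The 2 stroke comparisons called 73 members higher in common, as they did 23.2% of all genes, 3 with vehicle alone, and Cox7a2l, Ndufc2, mt-Nd2 and mt-Nd6 with bexarotene alone. Cox7a2l (0.38) was not called by DESeq2 (0.36), nor without aged bexarotene library 1 (0.33) or 3 (0.36) or stroke bexarotene library 1 (0.32) or 3 (0.33). In 78 of 95 members every stroke vehicle library was above every aged vehicle library, as were 31.0% of all genes, and with bexarotene the count was 85 against 31.2%. Without the 6 libraries numbered 1, 66 members were higher with vehicle and 72 with bexarotene.

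**Figure D2:**
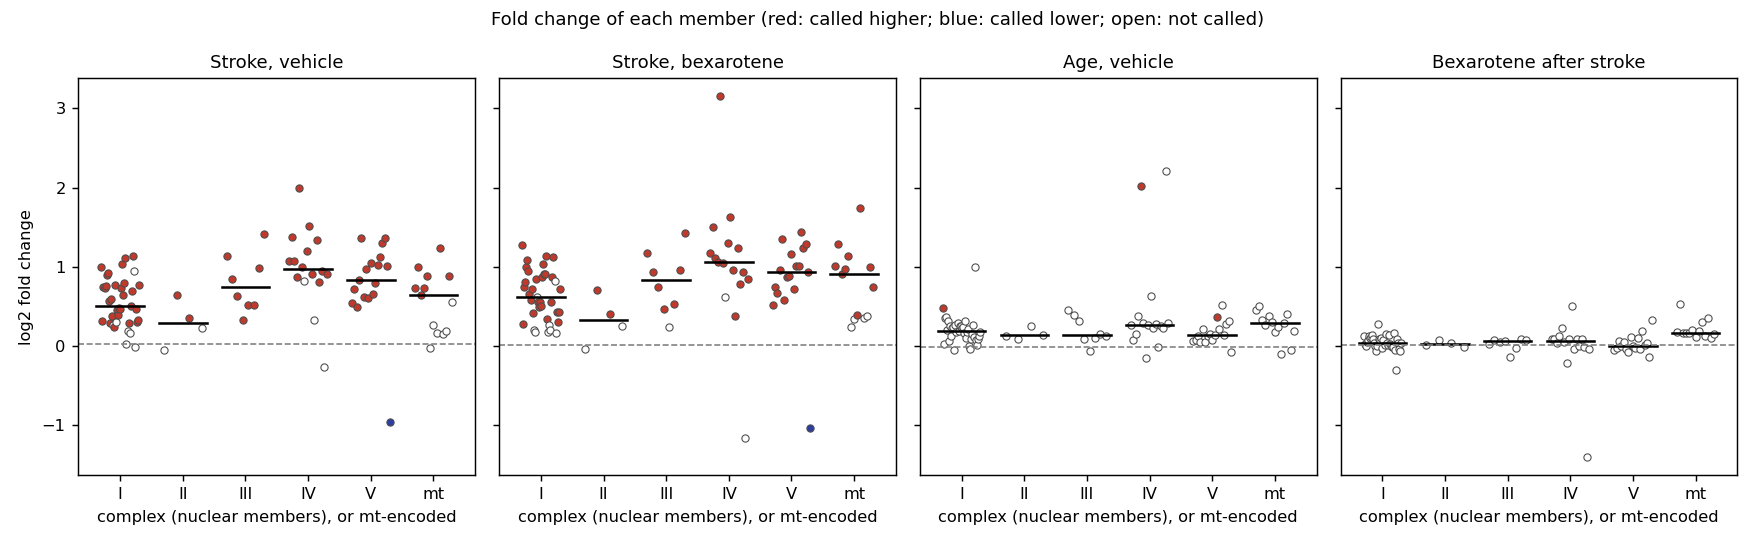
Log2 fold change of each tested member (points) by complex for the nuclear genes and for the mitochondrial genes (mt), in stroke with vehicle, stroke with bexarotene, age with vehicle, and bexarotene after stroke; red is called higher, blue called lower, open not called (edgeR, adjusted over all genes), short bars are medians and the dashed line is the median of all genes. Nearly all points lie above 0 in both stroke panels, with complexes IV and V highest among the nuclear genes.

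Complex IV, cytochrome oxidase, had the largest shift: 13 of 16 tested nuclear members were higher after stroke with vehicle, with a median of 0.97, and 14 with bexarotene, with a median of 1.05. Cox5a, a subunit on the matrix face of the complex, was at 19.3, 22.7 and 18.9 CPM in aged vehicle and at 50.8, 52.4 and 55.0 CPM after stroke. The groups were far apart, and the log2 fold change was 1.38 ± 0.13 (SE). Cox7b, a small membrane subunit, was at 38.7, 33.5 and 34.8 CPM in aged vehicle and at 89.6, 83.3 and 97.1 CPM after stroke. It rose by 1.34 ± 0.10 on the log2 scale (edgeR adjusted p = 8.71e-09), the lowest p of all members. Cox4i1, the common form of the regulatory subunit 4, was at 124, 130 and 111 CPM in aged vehicle and at 251, 230 and 287 CPM after stroke. Its fold change on the linear scale was 2.10. On the log2 scale Cox6c, Cox5b, Cox6b1, Cox8a, Cox7a2, Ndufa4, Cox6a1 and Cox7c rose by 0.81 to 1.20. Of this complex, Cox6b2 (0.82 ± 0.54), the testis form, Cox7a2l (0.33 ± 0.15), which links complexes III and IV, and Cox8b were not called. Cox6c2, which rose by 1.51 ± 0.29, is annotated as a processed pseudogene, and reads of such copies and of the parent genes may not be told apart.

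Isoform pairs of complex IV gave the sharpest contrast in level. Cox6a2, the heart and muscle form of subunit 6a, was at 0.95, 1.48 and 0.87 CPM in young vehicle and at 2.08, 6.75 and 4.32 CPM in aged vehicle. After stroke it was at 14.0, 12.98 and 25.3 CPM with vehicle and at 25.6, 12.4 and 22.9 CPM with bexarotene. The stroke libraries were all above every other library, by a log2 fold change of 1.99 ± 0.37 with vehicle (adjusted p = 0.000227) and 3.15 ± 0.40 with bexarotene (adjusted p = 3.80e-06, both edgeR). Its ubiquitous partner Cox6a1 was at 96.8, 95.4 and 97.3 CPM in aged vehicle and at 167, 167 and 195 CPM after stroke, a rise of 0.87 ± 0.11, so Cox6a1 stayed the more abundant form per kilobase (309 against 25.6 CPM per kb after stroke with vehicle). The transcript of Cox6a2 overlaps exons of Itgad on the other strand by 70 bases, and Itgad had group means of 0.061 to 0.870 CPM. Cox8b, the muscle partner of Cox8a, was highest in library 1 of all 6 groups (4.26, 0.29 and 1.06 CPM in aged vehicle), as Ttr was in 5; the part of these libraries' other cells in its level was not tested. The hypoxia and lung form Cox4i2 was too low to test: it was at 0, 0.29 and 0 CPM in aged vehicle and at 0.29, 0.18 and 0.21 CPM in stroke vehicle, where 3 counts correspond to 0.14 to 0.29 CPM, and at 0.38, 0.40 and 0.32 CPM in stroke bexarotene, where they correspond to 0.10 to 0.19 CPM. The muscle form Cox7a1 was at 0.36, 0.39 and 0.096 CPM in aged vehicle, at 0.54, 0.43 and 0.95 CPM in stroke vehicle and at 0.87, 1.19 and 0.74 CPM in stroke bexarotene. Ndufa4l2, a hypoxia-induced relative of Ndufa4, had counts in only 2 of 18 libraries, none above 0.24 CPM. Cox7b2, Cox8c and a second entry for Atp5o had no counts, and the pseudogene Ndufa11b stayed at or below 0.21 CPM.

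**Figure D3:**
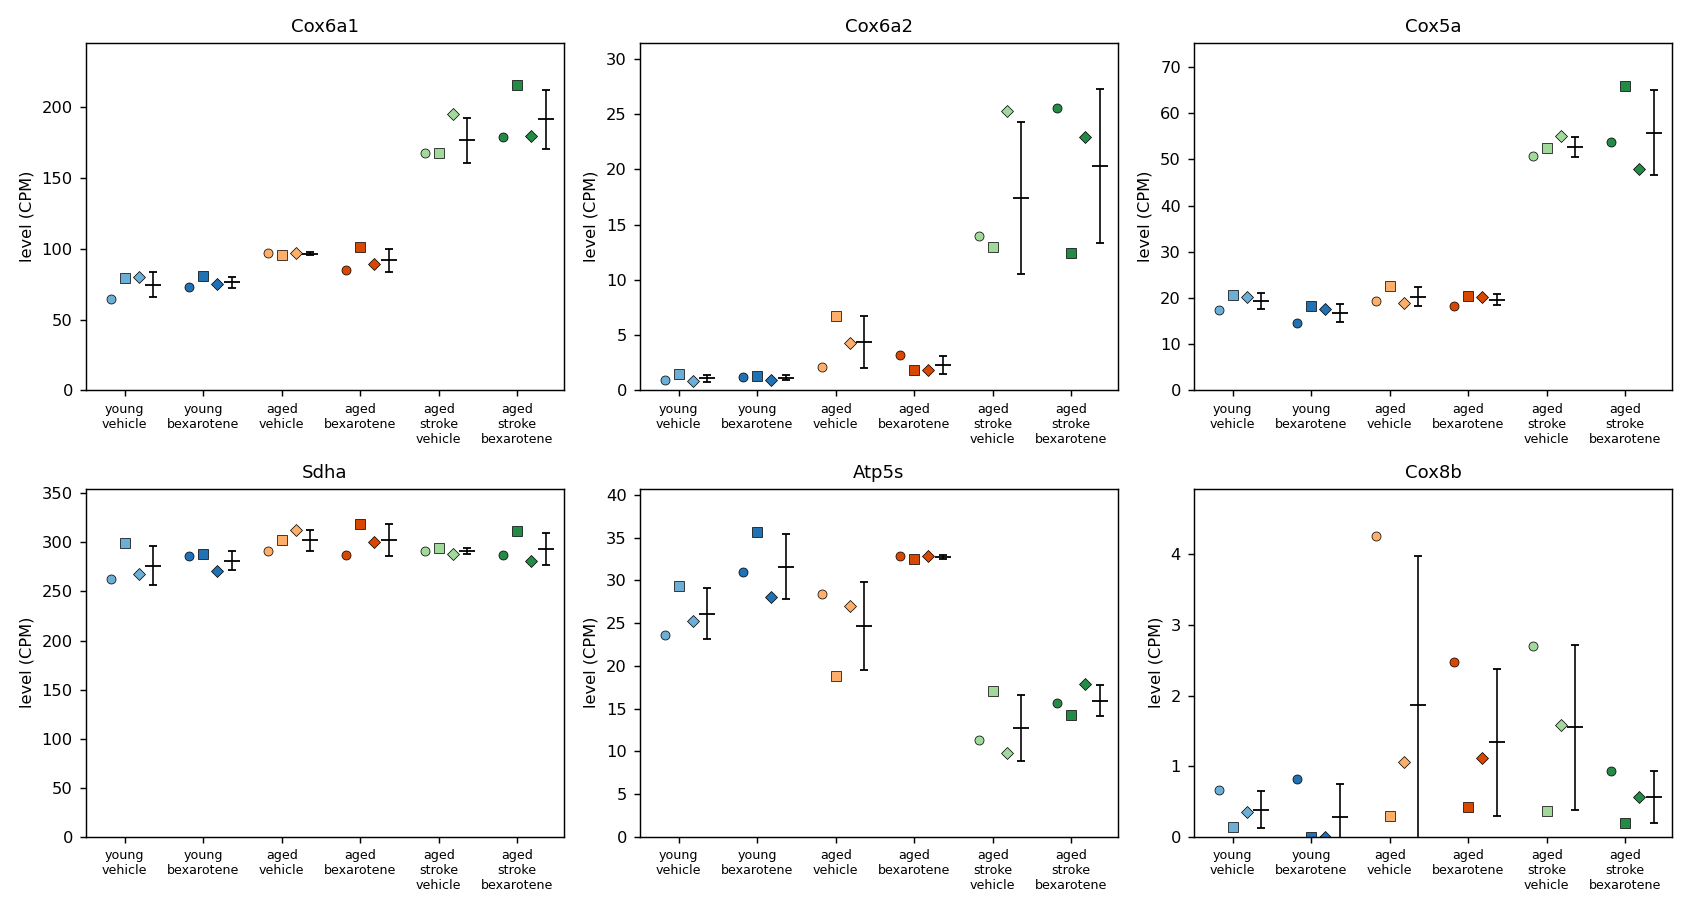
Levels (CPM, linear axes from 0) of Cox6a1, Cox6a2, Cox5a, Sdha, Atp5s and Cox8b in each library by group; circle, square and diamond mark libraries 1, 2 and 3, and bars give the mean ± SD of 3. Cox6a1, Cox6a2 and Cox5a are higher and Atp5s lower in all stroke libraries, Sdha lies in 1 band in every group, and Cox8b is highest in library 1 of each group.

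Complex V, the ATP synthase, followed closely. Of its 17 tested nuclear members 16 were higher after stroke with vehicle (median 0.83) and 16 with bexarotene (median 0.93). Atp5e, the small epsilon subunit of the F1 head, was at 25.3, 28.7 and 31.1 CPM in aged vehicle and at 62.2, 70.9 and 84.8 CPM after stroke. It rose by 1.36 ± 0.15, and Atp5mpl and Atp5l, small membrane subunits, rose by 1.37 ± 0.12 and 1.30 ± 0.11. The large subunits of the F1 head rose less on this scale. The catalytic Atp5b was at 446, 463 and 449 CPM in aged vehicle and at 742, 749 and 749 CPM after stroke. It rose by 0.72 ± 0.08, and Atp5a1, its alpha partner, rose by 0.54 ± 0.09. All 5 subunits of the F1 head were higher. The exception was Atp5s, whose product is related to coupling factor B and is not a core subunit. It was at 28.4, 18.8 and 27.0 CPM in aged vehicle and at 11.3, 17.1 and 9.82 CPM after stroke. Its groups did not overlap in this direction; it fell by 0.96 ± 0.19 with vehicle and by 1.04 ± 0.18 with bexarotene (edgeR adjusted p = 0.000347 and 0.000142), the one member called lower.

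Complex III, which passes electrons from ubiquinol to cytochrome c, was higher in all 8 tested members with vehicle (median 0.74) and in 7 with bexarotene (median 0.84). The small subunit Uqcrq was at 28.4, 29.9 and 28.7 CPM in aged vehicle and at 71.9, 72.9 and 86.0 CPM after stroke, a rise of 1.41 ± 0.13. Uqcr10 rose by 1.13 ± 0.12 and Uqcrh, the acidic hinge protein, by 0.98 ± 0.11. The core protein Uqcrc1 had the smallest change, 0.32 ± 0.10, from 126, 134 and 135 CPM to 164, 163 and 167 CPM, still without overlap.

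Complex I, the NADH dehydrogenase and the largest complex, had 30 of 37 tested nuclear members higher with vehicle (median 0.51) and 29 with bexarotene (median 0.62). The 37 include the processed pseudogenes Ndufb4c and Ndufs6b, which are left out of the core and other subunits compared below. Ndufs6, an accessory zinc-binding subunit, was at 15.3, 15.6 and 20.2 CPM in aged vehicle and at 39.8, 33.3 and 38.9 CPM after stroke. It rose by 1.13 ± 0.14, Ndufc1 by 1.11 ± 0.15, Ndufb7 by 1.04 ± 0.13 and Ndufa1 by 1.00 ± 0.11. The 7 core subunits, which carry the flavin and the iron-sulphur clusters, moved less: 4 were called higher with a median of 0.28, against 25 of 28 other nuclear subunits with a median of 0.67, a grouping chosen after the values were seen. The core transcripts are 983 (Ndufs7) to 2661 bases (Ndufs1) long, and values fell with length among other genes, as given below. The part of transcript length in this contrast was not tested. Ndufs1, the largest core subunit, was at 64.9, 64.5 and 66.3 CPM in aged vehicle and at 72.2, 74.1 and 76.7 CPM after stroke. The groups did not overlap, but the log2 fold change of 0.19 ± 0.10 was not called, and neither was Ndufs7 (−0.01 ± 0.14).

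Complex II, succinate dehydrogenase, which also belongs to the citric acid cycle, was the least changed. Sdha, its flavoprotein, was at 291, 302 and 313 CPM in aged vehicle, at 291, 294 and 288 CPM in stroke vehicle and at 287, 312 and 281 CPM in stroke bexarotene. These ranges overlapped, with a log2 fold change of −0.05 ± 0.08 with vehicle and −0.04 ± 0.08 with bexarotene (edgeR adjusted p = 0.602 and 0.668). The iron-sulphur subunit Sdhb rose by 0.64 ± 0.11 and the membrane anchor Sdhc by 0.35 ± 0.10. The other anchor, Sdhd, was at 0.23 ± 0.11 and was not called. With vehicle, Sdhc was no longer called without aged vehicle library 1 (0.21), without all libraries numbered 1 (0.19) or without the filter on low counts (0.33).

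The size of the change after stroke differed between the mitochondrial genes, although most are cut from shared precursor transcripts. Called higher with vehicle were mt-Nd3 (1.24 ± 0.18), mt-Atp8 (1.00 ± 0.21), mt-Nd5 (0.88 ± 0.23), mt-Co3 (0.88 ± 0.12), mt-Atp6 (0.73 ± 0.11), mt-Co2 (0.73 ± 0.19) and mt-Co1 (0.64 ± 0.18). These are the 3 cytochrome oxidase and both ATP synthase subunits together with 2 of the 7 complex I subunits. The complex III subunit mt-Cytb was at 641, 489 and 423 CPM in aged vehicle and at 552, 351 and 621 CPM after stroke. It overlapped fully (−0.03 ± 0.20), as mt-Nd4 did (0.15 ± 0.18), while mt-Nd1 was at 0.26 ± 0.16, mt-Nd2 at 0.16 ± 0.14, mt-Nd4l at 0.18 ± 0.28 and mt-Nd6 at 0.56 ± 0.23; of these, DESeq2 and limma voom called mt-Nd6. Without aged vehicle library 3, mt-Co1 was not called (0.47). By contrast, mt-Co3 was at 788, 775 and 694 CPM in aged vehicle and at 1389, 1152 and 1610 CPM after stroke, and mt-Nd3 at 24.5, 16.2 and 20.2 CPM and at 48.7, 42.4 and 53.2 CPM. Neither of these 2 genes overlapped between the groups. The second stroke vehicle library was the lowest of its group for 12 of the 13 genes, the exception being mt-Atp8. With bexarotene 9 of 13 were called, with mt-Nd2 and mt-Nd6 added. Every stroke library lay above every aged library without stroke for 5 of 13 genes with vehicle (31.0% of all genes). With bexarotene this held for 12 of 13 (31.2% of all genes), and all 13 values were above 0. There mt-Nd3 again led (1.74 ± 0.18) and mt-Cytb was again the smallest (0.23 ± 0.20). Both added genes lost the call without aged bexarotene library 2 (0.29 for mt-Nd2 and 0.63 for mt-Nd6), and mt-Nd2 also without aged bexarotene library 1 (0.40), stroke bexarotene library 1 (0.39) or stroke bexarotene library 3 (0.35). The mitochondrial ribosomal RNAs, no members, rose too: mt-Rnr2 by 1.15 ± 0.12 and mt-Rnr1 by 1.45 ± 0.15 with vehicle.

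The values of mt-Atp8 are uncertain because the gene overlaps its neighbour, as its sequence shows. Its 204 bases end in 43 bases (21.1%, capitals below) that are also the start of mt-Atp6, and reads there may be counted for either gene or for neither; mt-Nd4l and mt-Nd4 share 7 bases in the same way.
mt-Atp8: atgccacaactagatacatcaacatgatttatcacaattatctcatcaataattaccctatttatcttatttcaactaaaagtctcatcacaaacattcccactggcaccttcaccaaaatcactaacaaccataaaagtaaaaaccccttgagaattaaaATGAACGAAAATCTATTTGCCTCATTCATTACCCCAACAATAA

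**Figure D4:**
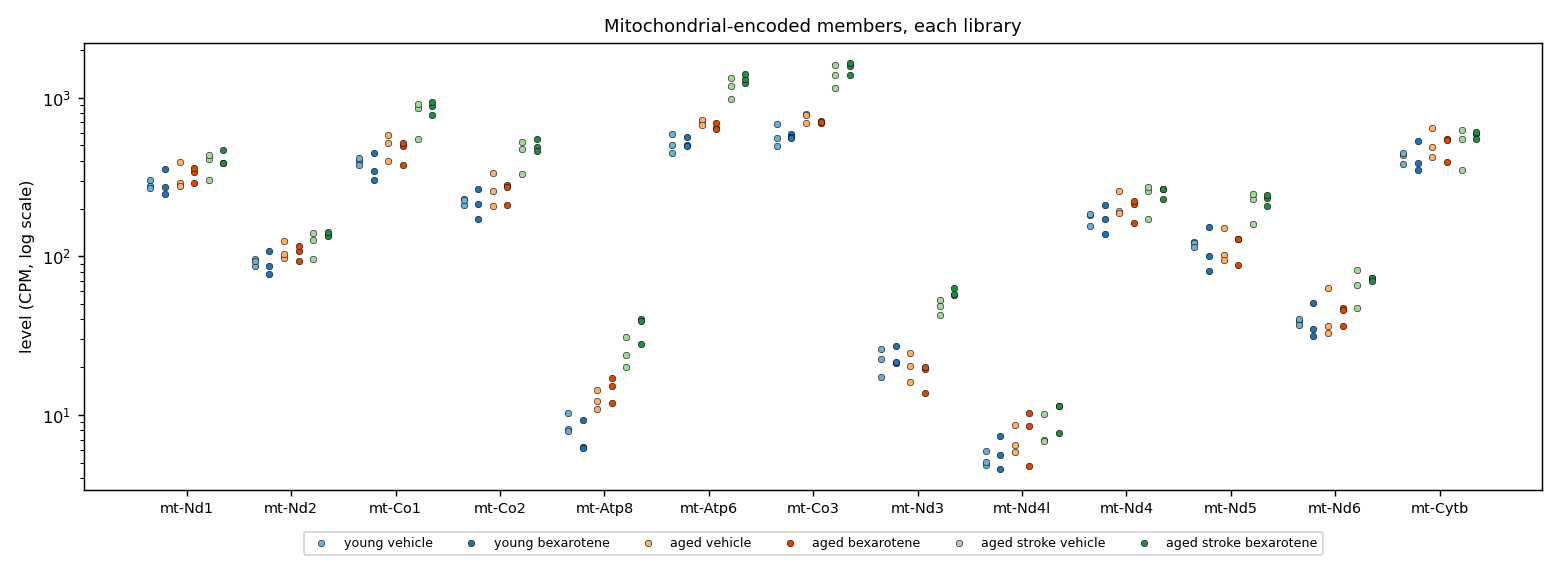
Levels (CPM, log axis) of the 13 mitochondrial protein-coding genes in each of the 18 libraries, coloured by group. The stroke libraries stand above the others for mt-Nd3, mt-Atp8, mt-Atp6 and mt-Co3 and overlap them for mt-Cytb, mt-Nd1 and mt-Nd4.

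Several other features moved with stroke beside these genes. Short transcripts as a class were higher: among protein-coding genes that are no members, the median log2 fold change with vehicle was 0.96 for 79 genes of up to 500 bases, 0.42 for 638 genes of over 500 and up to 1000 bases, 0.06 for 2589 genes of over 1000 and up to 2000 bases and −0.06 for 8946 longer genes. The nuclear members had medians of 1.06 (6 genes), 0.82 (41), 0.51 (25) and 0.32 (7) in the same classes, above the other genes in each. All 32 cytosolic ribosomal protein genes of a fixed list had positive values and 31 were called higher, with a median of 1.11. The part of transcript length in the rise of the members was not tested. The make-up of the cells differed as well. All 12 monocyte markers rose, from a summed 1618 to 2638 CPM in aged vehicle to 9951 to 15870 CPM in stroke vehicle, and 10 of 12 homeostatic microglial markers fell, from 54470 to 58630 CPM to 25880 to 27170 CPM. The neutrophil list had 5 of 12 genes higher, with sums of 684.5 to 952.7 CPM and 1088 to 2610 CPM. Of 10 markers of border-associated macrophages 5 were higher and 0 lower, with sums of 538.3 to 687.3 CPM and 1145 to 1198 CPM. With bexarotene 4 of these were higher and 4 lower. Of 7 tested genes of T, NK and B cells 4 were higher with vehicle and 0 with bexarotene. The astrocyte list had 1 of 8 genes higher and 1 lower with vehicle, with sums of 337.1 to 487.7 CPM and 122.1 to 163.3 CPM. All 12 proliferation genes rose, with Mki67 at 2.04 ± 1.27 CPM in aged vehicle and 93.8 ± 24.9 CPM in stroke vehicle (SD, n = 3), as did 9 of 11 immediate early genes. Of 11 heat shock genes, a second list for cell handling, 6 were lower and none higher with vehicle (median −0.83), and 1 was lower and 2 higher with bexarotene (median −0.21). The parts of cell make-up, division and handling in the rise of the members were not tested, and in bulk libraries more cells of a type and more RNA per cell cannot be told apart.

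**Figure D5:**
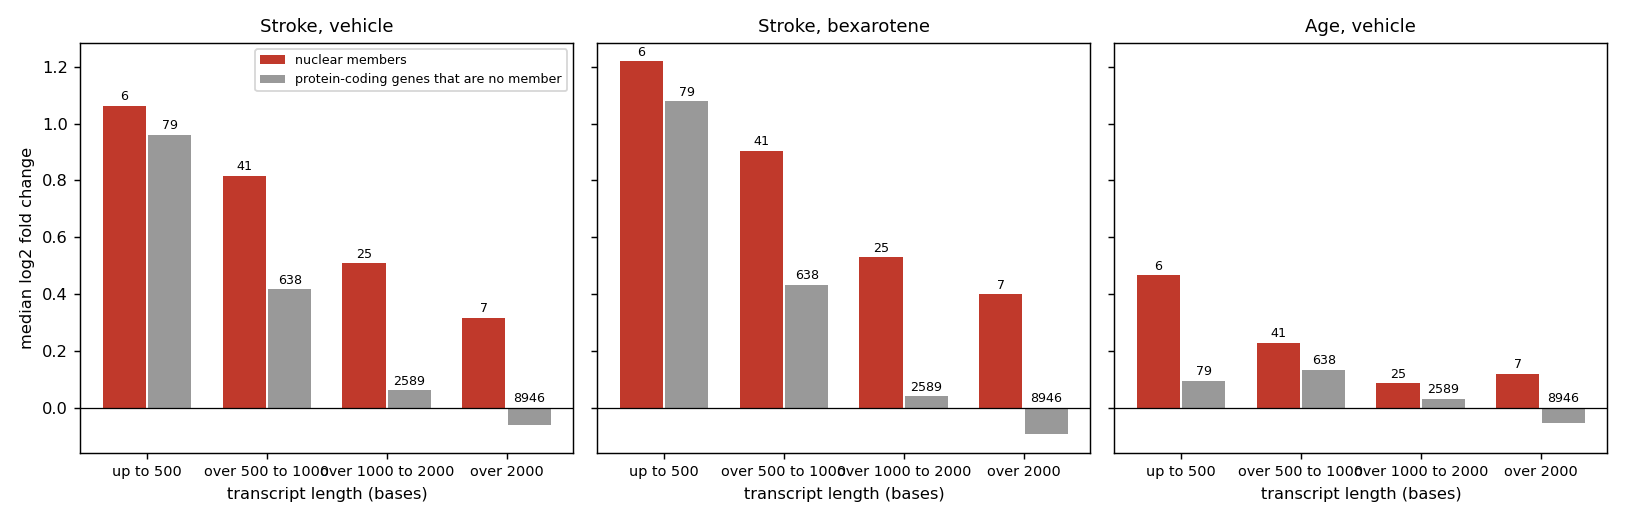
Median log2 fold change by transcript length class (bases) for the nuclear members (red) and for protein-coding genes that are no members (grey), in stroke with vehicle, stroke with bexarotene and age with vehicle; the number on each bar is its count of genes. Medians fall with length in both sets after stroke, and the red bar is above the grey one in every class.

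Other genes of the pathway gave mixed values after stroke. The counts below stand beside 27.2% of all genes called higher and 21.1% lower with vehicle, with a median of 0.02. With bexarotene the shares were 26.8% and 21.2%. Cytochrome c, encoded by Cycs, rose by 0.99 ± 0.11 with vehicle, and of 20 electron carriers and subunits whose names fall outside the rule 9 were higher and 1 lower (median 0.20). Of 45 tested assembly factors, which build the complexes without being part of them, 11 were higher and 6 lower, with a median of −0.05. Here Uqcc2 was at 0.88 ± 0.15 and its partner in building complex III, Uqcc1, at −0.76 ± 0.11. Of 21 tested genes that copy, transcribe and process mitochondrial DNA and RNA, 1 was higher and 8 were lower (median −0.22). The helicase gene Twnk fell by 0.87 ± 0.20 and the translation and transcription factor gene Mterf3 by 0.65 ± 0.13, while the RNA-degrading Pnpt1 rose by 0.91 ± 0.17. Among 10 regulators of mitochondrial biogenesis none was higher and Gabpb1, a GABP subunit, was lower (−0.32 ± 0.11). With bexarotene Yy1 (0.64 ± 0.16) and Gabpa, the DNA-binding GABP subunit (0.28 ± 0.10), were higher, and Gabpb1 (−0.43 ± 0.11) and Esrra (−0.28 ± 0.11) lower. Import and carrier genes, at 12 of 21 higher and none lower (median 0.38), and citric acid cycle genes, at 8 of 17 higher and 1 lower (median 0.24), lay between. Glycolysis had a larger median than any complex, 1.17, with 10 of 15 tested genes higher and 2 lower, and Pkm, the last enzyme of the path, went from a mean of 404.7 to 1462 CPM. With bexarotene the same lists gave medians of −0.02 for assembly factors, −0.29 for mitochondrial DNA and RNA, −0.28 for biogenesis regulators and 1.15 for glycolysis.

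Age moved few of these genes past the test, although most leaned one way. In aged against young vehicle cells, 3 of 95 members were higher and none lower, where 1.26% of all genes were called higher and 0.438% lower (edgeR, adjusted over all genes). The median log2 fold change was 0.18 over the nuclear and 0.28 over the mitochondrial genes, against −0.01 over all genes, and 86 of 95 values were above 0. Without aged vehicle library 1 the mitochondrial median was 0.12. In 32 of 95 members all aged libraries lay above all young ones, as did 9.69% of all genes. The called genes were Cox6a2, Atp5j and Ndufa1. Cox6a2, with the per-library values given above, had a log2 fold change of 2.02 ± 0.46 (edgeR adjusted p = 0.0282). Atp5j, coupling factor 6 of the ATP synthase stalk, was at 86.3, 89.8 and 90.0 CPM in young vehicle and at 108, 119 and 116 CPM in aged vehicle. The groups did not overlap, and it rose by 0.37 ± 0.08 (edgeR adjusted p = 0.0321); its exons overlap those of Gabpa on the other strand by 175 bases. Ndufa1, an accessory subunit of complex I, was at 20.4, 22.1 and 24.0 CPM in young and at 31.8, 30.3 and 30.6 CPM in aged vehicle, a rise of 0.48 ± 0.12 (edgeR adjusted p = 0.0491). Next came mt-Atp6, just outside the threshold, at 450, 503 and 594 CPM in young and 711, 727 and 672 CPM in aged vehicle (0.45 ± 0.11, adjusted p = 0.0511). The authors' deposited table of this comparison lists 4 of the members, mt-Atp6, Cox6a2, Atp5j and mt-Co3, with log2 fold changes of 0.32, 0.84, 0.25 and 0.24. These age calls rest on the fit: DESeq2 called 7 members (2.38% of all genes higher) and limma voom none (0.702%), and without any 1 of young vehicle 1, young vehicle 2, aged vehicle 2 or aged vehicle 3, or with the compared groups alone, none was called, while without young vehicle 3 only mt-Atp6 was.

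Under bexarotene, a comparison between other libraries, age gave 2 higher members and none lower, where 0.676% of all genes were higher and 0.283% lower. They were mt-Atp8, at 9.34, 6.32 and 6.19 CPM in young and 17.2, 15.3 and 11.9 CPM in aged mice (1.02 ± 0.22, edgeR adjusted p = 0.0311), and Uqcrh, at 26.9, 24.0 and 23.4 CPM in young and 34.8, 35.3 and 36.0 CPM in aged mice (0.51 ± 0.12, edgeR adjusted p = 0.0374). Neither group pair overlapped. The medians were 0.16 over the nuclear and 0.22 over the mitochondrial genes, against −0.01 over all genes, and 88 of 95 values were above 0. Among the 7 below 0 the lowest was mt-Nd3 (−0.39), which was not called. The nuclear median was 0.073 without aged bexarotene library 2, and the mitochondrial one 0.39 and 0.11 without young bexarotene library 1 and 2. DESeq2 called 4 members (1.6% of all genes higher) and limma voom none (0.303%). With any single library of these groups left out, 0 or 1 was called, the 1 being mt-Atp8. Both age comparisons had a positive median in the ribosomal protein list too, 0.43 with 7 of 32 called with vehicle and 0.26 with 2 called with bexarotene, and in the shorter transcript classes, for example 0.13 with vehicle for the 638 genes of over 500 and up to 1000 bases that are no members; the part of length was not tested. The 15 tested glycolysis genes had age medians of 0.40 with vehicle, with 0 called, and 0.30 with bexarotene, with 1 called. Of the lists for cell handling, the 11 heat shock genes had medians of 0.53 with vehicle and 0.18 with bexarotene. The 11 immediate early genes had 0.05 and 0.33, and 0 of either list were called. The part of handling in the age values of the members was not tested. All 12 homeostatic microglial markers had values below 0 with age in vehicle cells, and none was called. Of 10 markers of border-associated macrophages, 3 were called lower in each age comparison (medians −0.78 and −0.78) and none higher. Clec10a, Cbr2 and Pf4 were lower with vehicle, and Clec10a, F13a1 and Mrc1 with bexarotene. The summed level went from 877.5 to 1110 CPM in young vehicle to 538.3 to 687.3 CPM in aged vehicle; the part of these cells in the age values of the members was not tested.

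Bexarotene changed none of these genes past the test in young, aged or stroke mice. The count was 0 of 95 in each by edgeR, DESeq2 and limma voom, where edgeR called 0.509%, 0.258% and 0.058% of all genes in either direction. At an unadjusted p under 0.05 there were 1, 2 and 1 members, against 8.37%, 6.52% and 6.36% of all genes. In young mice the lowest p belonged to Uqcrh, at 27.2, 31.6 and 30.1 CPM with vehicle and 26.9, 24.0 and 23.4 CPM with bexarotene (−0.26 ± 0.12, edgeR adjusted p = 0.564), followed by Ndufv3 (0.22 ± 0.11) and Ndufs5 (−0.23 ± 0.13). In aged mice it was Cox6a2, whose 3.19, 1.87 and 1.83 CPM with bexarotene overlapped the vehicle values (−0.93 ± 0.41, edgeR adjusted p = 0.732), followed by Atp5s (0.40 ± 0.18) and Ndufc2 (−0.19 ± 0.12). After stroke it was mt-Atp8, at 20.1, 23.9 and 31.2 CPM with vehicle and 40.5, 28.0 and 39.4 CPM with bexarotene (0.52 ± 0.20, edgeR adjusted p = 0.607), followed by Cox6c2 (0.51 ± 0.27) and mt-Nd3 (0.30 ± 0.17). The vehicle and bexarotene libraries of Uqcrh did not overlap and those of mt-Atp8 did. Over the 95 members, 7, 7 and 3 had no overlap in either direction in young, aged and stroke mice, against 13.1%, 11.8% and 11.3% of all genes. Outside the members, bexarotene raised 1 of the 10 regulators of mitochondrial biogenesis in young mice. This was Esrra, from a mean of 23.7 to 36.3 CPM (0.61 ± 0.11, edgeR adjusted p = 0.0156). In aged and in stroke mice 0 of the 10 were called for bexarotene.

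After stroke all 13 mitochondrial genes had values above 0 for bexarotene, from 0.10 for mt-Nd5 to 0.52 for mt-Atp8, with a median of 0.16 against 0.00 over all genes. Without the second stroke vehicle library, the low one described above, the median was 0.00, and it ran up to 0.30 with other single libraries left out. Of 82 nuclear genes 54 were above 0, up to 0.51 for Cox6c2, and the nuclear median was 0.03. Medians in young and aged mice without stroke were 0.01 and −0.02 for the nuclear and 0.00 and −0.06 for the mitochondrial genes. The difference between the effects of bexarotene with and without stroke was called for 0 members, and that between aged and young mice for 0, where 0.0% of all genes were called by edgeR in each. At an unadjusted p under 0.05 there were 2 and 1 members, against 4.11% and 2.94% of all genes. The largest such difference was that of Cox6a2, 1.16 ± 0.53 between stroke and no stroke (edgeR adjusted p = 1.0), so its larger rise after stroke with bexarotene than with vehicle is not shown to differ. With 3 libraries a group, a value such as that of Sdha, whose bexarotene effect had an SE near 0.08, is measured far more closely than that of Cox6a2.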

How the data were processed

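RNA was read from 18 libraries (6 groups of 3), amplified with SMART-Seq v4 per the labels' protocols. The authors deposited a table of raw counts per gene; the submitters' processing notes name GRCm39, Trimmomatic 0.40, STAR 2.7.10a, GATK and R 4.4.2 without roles, and no source names the annotation, the strand setting or the treatment of reads with several matches, so overlapping genes and near-identical copies are uncertain (29 nuclear and 10 mitochondrial members share exon bases with another gene in GENCODE M21). The authors also deposited tables of 4 comparisons with log2 fold changes and p-values, limited to adjusted p-values under 0.05. Symbols matched 52029 of 57010 gene IDs; those without a symbol held 0.326% of counts.

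Counts were tested with edgeR 4.0.16 (filterByExpr, TMM, robust quasi-likelihood, 1 fit of all groups, 12 residual degrees of freedom, Benjamini-Hochberg over 15528 genes, R 4.3.3), after a test on simulated data; SE is the log2 fold change divided by the root of F. P-values measure the spread between these libraries, and 3 a group limit the precision. DESeq2 1.42.0, limma 3.58.1 (voom), other scaling, no filter, left-out libraries and a replicate block were alternatives. Same-numbered libraries deviated together in every pair (r over 0.1) for bexarotene in young mice (0.259, 0.276, 0.14) and for age under bexarotene (0.109, 0.3, 0.126), a pairing seen only in the data; the block changed no count of calls there. Named genes are up to 6 called members of each sign with the largest change at 10 CPM or more, or the 3 lowest p where none was called, plus all mitochondrial and complex II genes and the tissue isoforms; others were named after their values were seen. Transcript length is that of the principal GENCODE M21 transcript (GRCm38). The members and gene lists were chosen with earlier results of these data known.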

Additional observations from a re-analysis of the deposited data

How the results depend on the processing

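The stroke counts held under every alternative: 67 to 81 members were called with vehicle and 73 to 83 with bexarotene, and 71 to 79 and 74 to 79 with single libraries left out. With the replicate block they were 81 and 83; the numbers do not pair these groups. The count of 3 for age with vehicle was 7 with DESeq2, 5 with the replicate block, and 0 with limma voom, with the compared groups alone and without the libraries numbered 1; with single libraries left out it was 0 to 2. The count of 2 for age with bexarotene was 4 with DESeq2 and 0 with limma voom, with the compared groups alone and without the libraries numbered 1, and 0 to 1 with single libraries left out. The cause was not tested, beyond the fewer samples in the smaller fits. Without the libraries numbered 1 the nuclear median for age with vehicle was 0.12. With single libraries left out, nuclear medians ran from 0.073 to 0.179 (age with bexarotene), −0.050 to 0.048 (bexarotene, young) and −0.107 to 0.0098 (bexarotene, aged), and mitochondrial medians from 0.77 to 0.97 (stroke with bexarotene), 0.118 to 0.408 (age with vehicle) and 0.106 to 0.385 (age with bexarotene). Uncalled genes near 0 changed sign with single libraries left out. For age with vehicle the ranges were −0.61 to 0.38 for Cox6b2, −0.014 to 0.15 for Sdhb, −0.0063 to 0.27 for mt-Nd1, −0.27 to 0.039 for mt-Nd3, −0.29 to 0.066 for mt-Nd5 and −0.17 to 0.36 for mt-Nd6. For age with bexarotene they were −0.63 to 0.14 for Cox6b2, −0.055 to 0.15 for Sdhb, −0.016 to 0.14 for Sdhc and −0.14 to 0.34 for mt-Nd5. For stroke with vehicle they were −0.95 to 1.16 for Cox8b, −0.19 to 0.16 for mt-Cytb and −0.024 to 0.34 for mt-Nd4l. Without the libraries numbered 1, mt-Nd1 and mt-Nd6 (age with vehicle) came to −0.024 and −0.16, and Cox8b and mt-Cytb (stroke with vehicle) to 0.49 and 0.056; Cox8b came to 0.088 with limma voom. Over 137 named results, 1841 of 1952 alternatives kept direction and side of the threshold, 61 lost a call, 24 gained one and 26 changed sign. Depth limits Cox4i2, Cox7a1 and Ndufa4l2, with at most 11, 25 and 2 counts in a library.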
